A study of Mus musculus with 7 samples.

Results

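Chromatin accessibility of IFNγ-expressing CD4+ T cells of the lung was compared with that of IL-4-competent CD4+ T cells of the mediastinal lymph node (LN), the lung-draining node, in mice infected with the rodent nematode Nippostrongylus brasiliensis. The comparison takes 4 of the 7 ATAC-seq libraries of the series, 2 for each population. The remaining 3 libraries, from IL-4+ cells of the lung, share the tissue of the first population and the reporter of the second, and are given as a reference. All 113820 regions of the deposited table were tested, of which 53113 had a mean density below 5 in both populations. All mice were C57BL/6 and carried a cytokine reporter: the LN cells were GFP+ cells of IL-4 4get mice, in which GFP marks cells competent to express Il4, and the lung cells were YFP+ cells of IFNγ Great mice, in which YFP marks cells expressing Ifng. Each mouse received 500 L3 larvae under the skin, cells were sorted at day 8, and each library was made from 50000 cells. The sort took CD3ε+ CD4+ cells and left out cells with CD8, B220, NK1.1, CD11b, CD11c or Ter119. Tissue, cytokine and reporter line all differ between the populations and cannot be told apart, and no library used here came from uninfected mice or from CD4+ cells without a reporter signal. All libraries came from a single experiment.

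In ATAC-seq the Tn5 transposase inserts adapters into open DNA, so that the density of insertions measures how accessible a region is. CD4+ T cells that make IFNγ are known as Th1 cells. They depend on the T-box factor T-bet (encoded by Tbx21) and on Runx3, and respond to IL-12 and IL-18. Type 2 responses to helminths rest on IL-4-expressing cells of different kinds: Th2 cells, which reach the infected tissue and also make IL-5 and IL-13, and T follicular helper (Tfh) cells, which stay in the lymph node, depend on Bcl6 and help B cells. T cells that settle in a tissue use another set of genes again, among them integrins, chemokine receptors and the factors Blimp-1 (Prdm1), Hobit (Zfp683) and Bhlhe40.

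Of the regions that differed, 6 are shown as their central 300 bases, because they hold the motifs that were most unevenly shared between the directions. Sequences are from the plus strand of the mouse genome (RefSeq GRCm38.p6, the build of the regions), 5′ to 3′, with matches to the motifs named beside them in capitals. The capitals mark AACCACA (Runx), AGGTGTGA (T-box), GGAAGT (ETS) and TGANTCA (bZIP), or their reverse complements, in the 3 regions that were more accessible in lung IFNγ+ cells. These lie 2.88 kb from the start of Cxcr3 at chrX:101737272-101737571, 12.3 kb from the start of Klrg1 at chr6:122270170-122270469 and in an intron of Lgals3 at chr14:47376472-47376771.
Cxcr3: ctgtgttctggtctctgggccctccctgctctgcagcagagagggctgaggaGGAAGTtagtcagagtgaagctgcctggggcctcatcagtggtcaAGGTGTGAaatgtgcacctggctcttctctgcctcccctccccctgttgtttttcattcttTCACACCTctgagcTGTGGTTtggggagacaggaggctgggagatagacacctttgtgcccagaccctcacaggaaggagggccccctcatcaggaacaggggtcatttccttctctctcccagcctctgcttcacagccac
Klrg1: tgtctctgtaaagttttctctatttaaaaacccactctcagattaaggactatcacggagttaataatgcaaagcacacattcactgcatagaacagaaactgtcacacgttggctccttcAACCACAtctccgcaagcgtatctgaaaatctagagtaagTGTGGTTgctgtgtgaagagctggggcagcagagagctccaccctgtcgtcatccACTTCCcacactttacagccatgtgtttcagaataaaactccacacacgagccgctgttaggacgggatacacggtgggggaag
Lgals3: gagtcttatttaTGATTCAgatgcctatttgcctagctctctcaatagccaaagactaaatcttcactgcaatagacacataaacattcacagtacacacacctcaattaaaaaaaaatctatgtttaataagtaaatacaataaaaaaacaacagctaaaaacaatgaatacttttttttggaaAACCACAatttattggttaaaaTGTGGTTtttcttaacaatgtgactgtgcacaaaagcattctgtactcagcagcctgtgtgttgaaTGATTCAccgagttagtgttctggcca

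In the 3 regions that were more accessible in LN IL-4+ cells the capitals mark TCAAAG (Tcf7) in each, ATGCAAAT (OCT) in Pacsin2 and, in Tox2, also 1 match to the Runx letters. Matches to the other motifs searched are left in lower case: 1 GATA match in Tox2, 1 KLF match in Btla and 1 NFAT match each in Lgals3 and Pacsin2. They lie in an intron of Tox2 at chr2:163298963-163299262, 37.0 kb from the start of Btla at chr16:45261447-45261746 and in an intron of Pacsin2 at chr15:83431269-83431568.
Tox2: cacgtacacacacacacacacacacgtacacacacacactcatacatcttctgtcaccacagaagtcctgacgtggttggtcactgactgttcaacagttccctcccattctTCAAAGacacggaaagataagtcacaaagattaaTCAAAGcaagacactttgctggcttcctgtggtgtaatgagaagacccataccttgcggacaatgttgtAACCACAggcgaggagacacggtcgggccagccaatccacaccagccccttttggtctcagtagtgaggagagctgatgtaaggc
Btla: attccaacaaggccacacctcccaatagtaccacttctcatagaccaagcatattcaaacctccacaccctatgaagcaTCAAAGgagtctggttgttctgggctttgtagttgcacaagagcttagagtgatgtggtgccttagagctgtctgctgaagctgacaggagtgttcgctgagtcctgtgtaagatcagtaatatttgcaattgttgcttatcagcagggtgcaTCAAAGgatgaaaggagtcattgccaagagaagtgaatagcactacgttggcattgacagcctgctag
Pacsin2: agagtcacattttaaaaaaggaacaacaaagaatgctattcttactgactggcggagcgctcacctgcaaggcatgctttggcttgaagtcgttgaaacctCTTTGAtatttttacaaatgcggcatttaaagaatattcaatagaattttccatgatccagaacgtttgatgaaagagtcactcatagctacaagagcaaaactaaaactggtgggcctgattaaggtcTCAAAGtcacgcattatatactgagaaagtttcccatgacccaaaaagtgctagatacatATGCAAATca

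Insertion counts rebuilt from the tied values of each library gave totals of 23564412 and 63937033 in the LN libraries and 53657354 and 91681969 in the lung IFNγ+ libraries. These totals are lower bounds. LN library 1 had a narrower spread of counts over regions than the other 3 (log2 ratio of upper to lower quartile 1.696, against 2.949 to 3.087). Cd4 promoter density was 21.0 and 22.3 normalised insertions per kb in the LN libraries and 22.2 and 21.0 in the lung IFNγ+ libraries. Promoter regions were present for 8 of 8 T cell markers, and for none of 6 B cell and none of 2 CD8 markers. Promoter regions were also present for 4 of 7 markers of NK and innate lymphoid cells, with summed densities of 83.6 and 66.5 against 59.0 and 61.4, for 5 of 9 myeloid markers, with 76.6 and 58.7 against 51.6 and 49.6, and for 4 of 7 markers of lung epithelium and endothelium, with 47.1 and 49.0 against 43.4 and 46.8. Gata3 made up the largest part of the NK and innate lymphoid sum (48.3 and 42.2 against 35.1 and 37.6), and Klrb1c was at 3.32 and 2.34 against 2.75 and 2.82. Of the myeloid promoters, Cebpa and Cebpb were denser in the LN libraries. Itgam (2.83 and 1.79 against 7.77 and 5.39), Itgax (3.44 and 1.07 against 7.08 and 5.68) and Fcgr3 went the other way. The sums do not measure the share of other cells. None of the promoter regions of any marker list was called.

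Lung IFNγ+ cells had 2469 regions of higher accessibility and LN IL-4+ cells 981, at an adjusted p below 0.05 (limma, Benjamini-Hochberg over all regions) and a difference of at least 3-fold. These are 2.17% and 0.862% of all regions tested. At every called region both libraries of a population lay on the same side of both libraries of the other. The call itself selects for this, so it adds no separate support. Over all regions 26.5% had both lung IFNγ+ libraries above both LN libraries and 27.2% had them below. The median log2 difference over all regions was -0.03. Among the called regions it was 2.22 in favour of the lung IFNγ+ cells and -2.21 in the other direction, and 367 and 107 regions differed by more than 8-fold. Most called regions were weak in the population with the lower value: 1835 (74.3%) of the regions higher in lung IFNγ+ cells had a density below 5 in LN IL-4+ cells, and 852 (86.9%) of the regions higher in LN IL-4+ cells had a density below 5 in lung IFNγ+ cells. In bulk libraries, fewer cells with an open region and a less open region in every cell cannot be told apart.

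**Figure D1:**
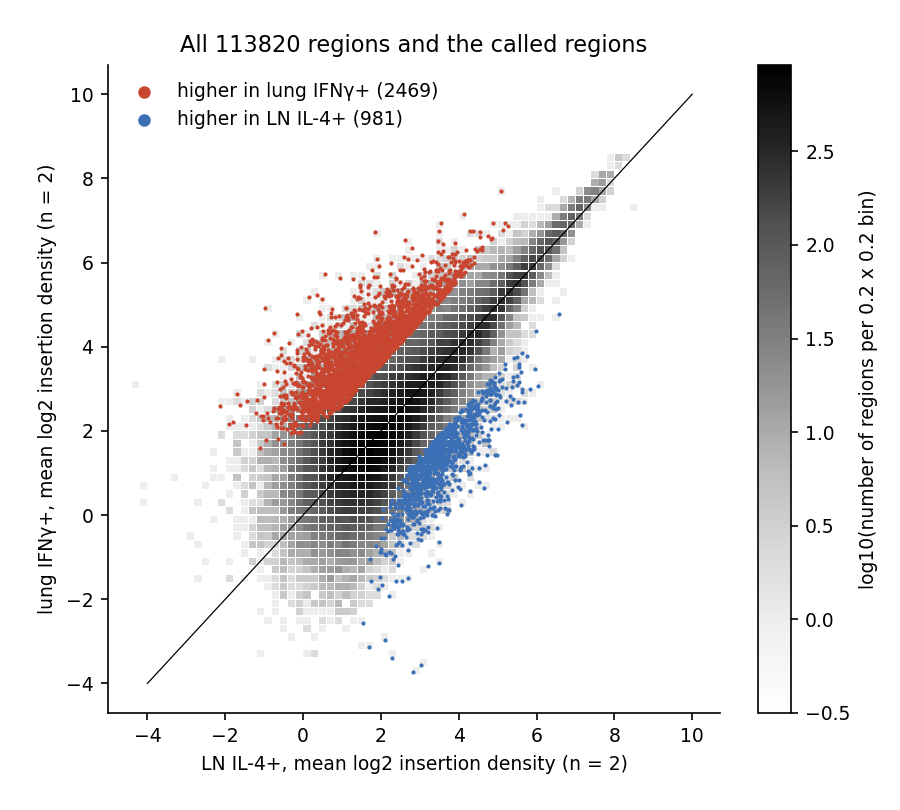
Mean log2 insertion density (normalised insertions per kb, n = 2 libraries each) of lung IFNγ+ cells against LN IL-4+ cells for all 113820 regions, in grey as the log10 number of regions per bin, with the called regions as points. The 2469 red points lie above the line of equal density and the 981 blue points below it, and both sets extend down to low densities in the population with the lower value.

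The number of calls rested on the lung IFNγ+ libraries, which agreed closely with each other. The median standard deviation (SD) between them was 0.147 on the log2 scale over all regions, against 0.419 between the LN libraries. Without lung IFNγ+ library 1 the counts were 92 higher in lung IFNγ+ cells and 16 higher in LN IL-4+ cells, and without library 2 they were 166 and 61. Without LN library 1 there were 1814 and 565 calls, and without LN library 2 there were 4575 and 1418. The lung IL-4+ libraries entered only through the shared estimate of the spread, and without library 2 of that population the counts were 1715 and 614. With the narrow or wide class of each library as a covariate there were 3241 and 2017 calls, of which 2113 and 923 were among those above. Of the 113 regions chosen for description, 8 were called without each single library in turn, among them those of Ifng, Il18r1, Itga1, Klri2, Dhrs9 and Serpinb9. The number called was 9 without lung IFNγ+ library 1, 20 without library 2, 77 without LN library 1 and 81 without lung IL-4+ library 2. No log2 difference among the 113 changed sign under any of 23 alternatives. Direction could not change where a library was left out or only the threshold moved, so those alternatives add no separate support.

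The regions of either direction were mostly remote from promoters. Within 1 kb of a protein-coding transcription start lay 90 (3.65%) of the regions higher in lung IFNγ+ cells and 47 (4.79%) of those higher in LN IL-4+ cells, against 18.7% of all regions. The median distance to a start was 25.8 kb and 29.7 kb, against 13.2 kb for all regions. Intergenic regions made up 39.9% of the first set, 27.2% of the second and 27.4% of all regions, and introns 47.2%, 53.1% and 41.9%. Read by class, 3.16% of intergenic and 2.44% of intronic regions were called higher in lung IFNγ+ cells, but 0.422% of promoter regions.

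The Ifng gene itself, whose reporter was used to sort the cells, held a region that was among the most different of all. At its promoter (chr10:118440693-118441133) log2 insertion density was 0.53 and 1.34 in the LN libraries and 5.60 and 5.69 in the lung IFNγ+ libraries, a log2 difference of 4.71 ± 0.31 (SE; adjusted p = 0.000572). Lung IL-4+ cells lay between them, at 3.5 to 4.02, well above the LN cells of the same reporter line. The region was called under each of the 23 alternatives. Over the 11 regions within 10 kb of Ifng, summed normalised insertions were 16.6 and 12.5 in the LN libraries. They were 72.0 and 71.2 in the lung IFNγ+ libraries and 16.6, 30.8 and 20.3 in the lung IL-4+ libraries. By this sum lung IL-4+ cells lay nearer to the LN cells.

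Th1 genes had 27 of 236 regions more accessible in lung IFNγ+ cells (11.4%, against 2.17% of all regions) and 0 more accessible in LN IL-4+ cells, with a median log2 difference of 0.66. Calls fell at 9 of 18 genes: 6 regions at Il18r1 and 5 at Il18rap (the chains of the IL-18 receptor), 3 at Tbx21, 3 at Il12rb2 (a chain of the IL-12 receptor), 3 at Cxcr3, 2 each at Ifng, Runx3 and Stat4 (the STAT factor that signals for IL-12), and 1 at Ifngr2. In an intron of Il12rb2 (chr6:67367104-67367552) the LN libraries had log2 densities of 0.30 and 0.67 and the lung IFNγ+ libraries 4.29 and 4.03, and the lung IL-4+ libraries were low as well, at 1.58 to 1.94. The log2 difference was 3.67 ± 0.38 (adjusted p = 0.00173). An intronic region of Il18r1 (chr1:40467239-40467711) had 0.29 and 0.44 in the LN libraries against 4.14 and 4.08, a log2 difference of 3.75 ± 0.32 (adjusted p = 0.000803). Here the lung IL-4+ libraries, at 2.91 to 3.37, stood near the lung IFNγ+ libraries. The same was seen at the intronic region of Tbx21 (chr11:97103192-97104480), with 1.99 and 1.21 in the LN libraries, 3.53 to 3.97 in lung IL-4+ cells and 4.08 and 3.99 in lung IFNγ+ cells (log2 difference 2.43 ± 0.32, adjusted p = 0.00394). At Stat4 (chr1:52034134-52035795) densities of 1.94 and 2.27 stood against 4.55 and 4.44 (2.39 ± 0.29, adjusted p = 0.00312). The list had 2 calls without lung IFNγ+ library 1 and 2 without library 2, and with the spread class as a covariate it had 49.

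Chemokine genes and the receptors for inflammatory chemokines had 32 of 180 regions more accessible in lung IFNγ+ cells (17.8%) and 0 in the other direction, at 15 of 16 genes, with a median log2 difference of 0.54. Ccr4, a receptor of Th2 cells, was the gene without a call. The ligand genes Ccl3 and Ccl5, whose products attract monocytes and effector T cells, had 4 of 6 called regions each, and both regions of Xcl1, whose product attracts cross-presenting dendritic cells, were called. Near Ccl3 (chr11:83640131-83640606) log2 density was 1.81 and 1.37 in the LN libraries, 1.70 to 2.42 in lung IL-4+ cells and 5.01 and 4.65 in the lung IFNγ+ libraries (3.24 ± 0.35, adjusted p = 0.0021). Only the IFNγ+ cells were high at this region. The region shown for Cxcr3, the receptor that marks Th1 cells (chrX:101737145-101737698), had -0.53 and 1.36 in the LN libraries and 4.86 and 4.76 in the lung IFNγ+ libraries, with 1.44 to 2.56 in lung IL-4+ cells (4.40 ± 0.59, adjusted p = 0.00415). The LN libraries stood apart from each other here, but both lay below each of the lung libraries. Promoters of Ccl4 (2.32), Xcl1 (3.06) and Ccr1 (1.70) were called as well, with the log2 differences given. The call of Cx3cr1 with the largest difference (3.26) lay at the start of Xirp1, inside a long annotated transcript of Cx3cr1. The list had 0 calls without lung IFNγ+ library 1 and 3 without library 2, and without LN library 1 or lung IL-4+ library 2 it had 20.

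Genes for cytotoxic proteins and killer lectin-like receptors, which are known from NK cells and cytotoxic T cells, had 30 of 170 regions more accessible in lung IFNγ+ cells (17.6%) and 0 in the other direction. The median log2 difference was 0.96, and 15 of 18 genes had a call, all but Gzmc, Cst7 and Crtam. Among the effectors, Nkg7 and Fasl (Fas ligand) had 3 calls each, the granzyme genes Gzmb and Gzmk 2 each, and Gzma, Prf1 (perforin), Ctsw and Serpinb9 (a granzyme B inhibitor) 1 each. Near Prf1 (chr10:61306137-61306595) log2 density was 2.33 and 2.56 in the LN libraries, 2.38 to 2.43 in lung IL-4+ cells and 4.61 and 4.80 in the lung IFNγ+ libraries (2.26 ± 0.27, adjusted p = 0.00277). Both IL-4+ populations had the same low level at this region. Among the receptors, Klre1 had 4 calls, Klrk1 (NKG2D), Klrd1 and Klrg1 3 each, Klrc1 2 and Klrb1c 1. At the Klrk1 promoter (chr6:129622350-129622897) the LN libraries had -0.70 and 1.68 and the lung IFNγ+ libraries 4.18 and 4.23 (3.72 ± 0.62, adjusted p = 0.00989). The region shown for Klrg1 (chr6:122270091-122270547) had 1.84 and 2.98 against 5.36 and 5.36, with 4.18 to 4.83 in lung IL-4+ cells (2.95 ± 0.35, adjusted p = 0.00283). An intergenic region closest to the start of Klri2 (chr6:129747217-129747819), in the same gene complex but outside the list, had 1.19 and 2.49 against 6.75 and 6.70. The log2 difference was 4.88 ± 0.42 (adjusted p = 0.00083), and the region was called under each of the 23 alternatives. NK1.1, the product of Klrb1c, was gated out in the sort. Leaving out lung IFNγ+ library 1 left 3 calls in the list, and leaving out library 2 left 5.

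**Figure D2:**
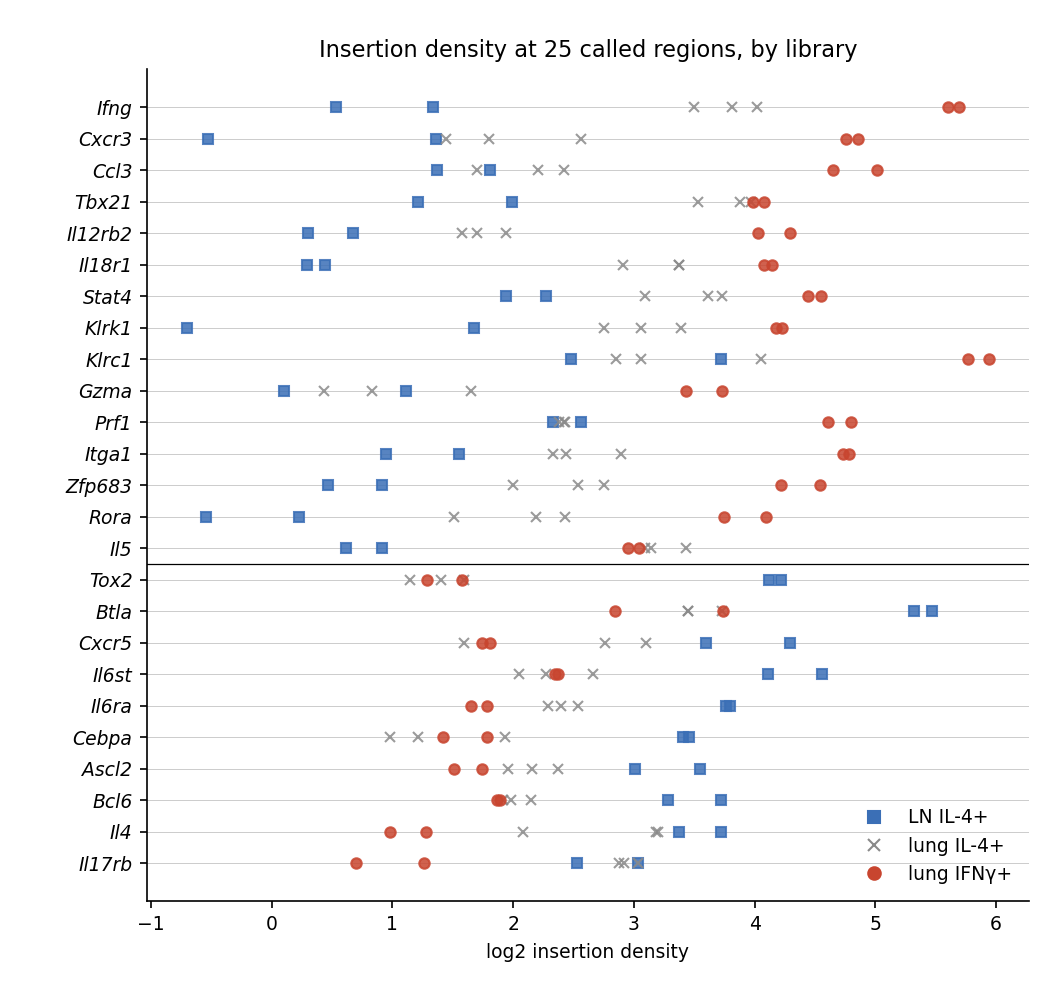
Log2 insertion density (normalised insertions per kb) in each of the 7 libraries at 25 called regions named by gene, 15 higher in lung IFNγ+ cells and 10 higher in LN IL-4+ cells. Squares are LN IL-4+, crosses lung IL-4+ and circles lung IFNγ+ libraries. The crosses lie close to the circles at Il18r1, Tbx21 and Il5 and close to the squares at Prf1 and Ccl3.

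Genes of tissue residence and effector function had 28 of 401 regions more accessible in lung IFNγ+ cells (6.98%) and 0 in the other direction, at 10 of 20 genes, with a median log2 difference of 0.50. Rora, the gene of a nuclear receptor, had 8 calls of 108 regions, Itga1, the gene of the collagen-binding integrin CD49a, had 6 of 26, and Rbpj and Lgals3 had 3 each. The region of Itga1 with the largest difference (chr13:115096958-115097398) had log2 densities of 0.95 and 1.55 in the LN libraries, 2.33 to 2.89 in lung IL-4+ cells and 4.78 and 4.73 in the lung IFNγ+ libraries (3.51 ± 0.34, adjusted p = 0.00124). A region near Zfp683 (chr4:134047408-134048081) had 0.91 and 0.47 against 4.54 and 4.22, with 2.00 to 2.75 in lung IL-4+ cells (3.69 ± 0.37, adjusted p = 0.00158). At the Rora intron (chr9:69362026-69362496) densities of 0.23 and -0.54 stood against 4.09 and 3.75 (4.07 ± 0.47, adjusted p = 0.00248). Over the whole of Rora, however, lung IL-4+ cells were at least as accessible as lung IFNγ+ cells: summed normalised insertions were 332 and 342 in the LN libraries, 717 to 737 in lung IL-4+ cells and 647 and 639 in lung IFNγ+ cells. In the Lgals3 intron, shown above with its pair of Runx and pair of bZIP matches (whole region chr14:47376405-47376837), the LN libraries had -1.16 and -0.04 and the lung IFNγ+ libraries 2.74 and 2.90 (3.42 ± 0.62, adjusted p = 0.0146). Bhlhe40 (2.61) and Prdm1 (1.79) had 1 called region each. Leaving out lung IFNγ+ library 1 left 1 call, and leaving out library 2 left 3.

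Type 2 genes were divided. Of 231 regions, 15 were more accessible in lung IFNγ+ cells (6.49%) and 4 in LN IL-4+ cells (1.73%, against 0.862% of all regions), with a median log2 difference of 0.03. Of the 15, 9 lay at Il1rl1, the gene of the IL-33 receptor ST2, which neighbours Il18r1. Over the cluster of IL-1 receptor family genes, 16 of 70 regions were called (22.9%), all higher in lung IFNγ+ cells, at Il1rl1, Il18r1 and Il18rap and none at Il1r1, Il1r2 or Il1rl2. Neighbouring genes share some of these regions. Summed normalised insertions at Il1rl1 were 45.5 and 39.9 in the LN libraries, 104 and 111 in lung IFNγ+ cells and 116 to 163 in lung IL-4+ cells. The other calls in this direction fell at Il10 (2), Il5, Gata3, Pparg and Ccr8. Over the 26 regions of Gata3, however, the sums went the other way. They were 397 and 307 in the LN libraries and 265 and 272 in lung IFNγ+ cells. At Il10, Il5, Pparg and Ccr8 the sums went with the calls. Near Il5, the gene of the eosinophil growth factor (chr11:53726580-53727038), log2 density was 0.62 and 0.91 in the LN libraries and 2.95 and 3.04 in the lung IFNγ+ libraries, and as high in lung IL-4+ cells, at 3.09 to 3.43 (2.23 ± 0.33, adjusted p = 0.00621). In an intron of Pparg, the gene of a nuclear receptor of Th2 cells, densities of 1.36 and 2.17 stood against 3.48 and 4.10, and lung IL-4+ cells were higher still, at 4.84 to 5.11 (2.03 ± 0.32, adjusted p = 0.008). Without lung IFNγ+ library 1 or 2 a single call of the 15 and of the 16 was left by count, without LN library 1 there were 7 and 10, and without lung IL-4+ library 2 there were 8 and 7.

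Il4 itself went the other way. Of its 14 regions, 3 were more accessible in LN IL-4+ cells and 0 in lung IFNγ+ cells. At the promoter (chr11:53618058-53619204) log2 density was 3.72 and 3.37 in the LN libraries, 2.08 to 3.20 in lung IL-4+ cells and 0.98 and 1.28 in the lung IFNγ+ libraries (-2.42 ± 0.43, adjusted p = 0.0131). The sort on the Il4 reporter chose cells by this gene. The region was not called without LN library 1 or without either lung IFNγ+ library. A region at Il17rb, a chain of the IL-25 receptor, at the start of the neighbouring gene Chdh, also had higher density in LN IL-4+ cells (-1.80 ± 0.37, adjusted p = 0.0247). There, lung IL-4+ cells were at 2.88 to 3.03, level with the LN libraries at 3.03 and 2.53. The 4 calls of type 2 genes in this direction were 1 without LN library 1, 7 without LN library 2 and 0 without either lung IFNγ+ library.

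Tfh genes had 11 of 372 regions more accessible in LN IL-4+ cells (2.96%) and 1 more accessible in lung IFNγ+ cells, with a median log2 difference of -0.40. The 11 were spread over 9 of 21 genes: 2 each at Tox2 and Btla, and 1 each at Bcl6, Cxcr5 (the receptor that guides Tfh cells to B cell follicles), Ascl2, Il6ra and Il6st (the chains of the IL-6 receptor), Izumo1r and Cebpa. None was called at Pdcd1, Icos, Il21, Sh2d1a, Tox, Maf, Batf, Slamf6, Cd200, Tigit or Id3, which does not show that their accessibility was equal. The call in the other direction was at Pou2af1. The Tox2 intron shown above (whole region chr2:163298889-163299335) had log2 densities of 4.12 and 4.22 in the LN libraries and 1.29 and 1.58 in the lung IFNγ+ libraries, and lung IL-4+ cells were as low, at 1.15 to 1.59 (-2.73 ± 0.36, adjusted p = 0.00415). The region shown for Btla, an inhibitory receptor (chr16:45261313-45261880), had 5.32 and 5.47 against 2.84 and 3.74, with 3.45 to 3.73 in lung IL-4+ cells (-2.11 ± 0.30, adjusted p = 0.00506). The lung IFNγ+ libraries stood apart from each other, and the region was called under 22 of the 23 alternatives. At the Cxcr5 promoter (chr9:44523976-44528814) the LN libraries had 4.29 and 3.60 and the lung IFNγ+ libraries 1.81 and 1.74 (-2.16 ± 0.48, adjusted p = 0.0335), with lung IL-4+ cells spread from 1.59 to 3.10. Over the 20 regions of Cxcr5, summed normalised insertions were 303 and 195 against 94.8 and 94.8. At Il6st (chr13:112510517-112511213) densities of 4.11 and 4.56 stood against 2.37 and 2.35 (-1.98 ± 0.32, adjusted p = 0.00908). The region near Bcl6, the factor that defines Tfh cells, was near the threshold (-1.62 ± 0.34, adjusted p = 0.0272) and was called under 8 of the 23 alternatives. The Tfh count fell to 4 without LN library 1, 5 without lung IL-4+ library 2, 0 without lung IFNγ+ library 1 and 1 without library 2, and was 17 without lung IL-4+ library 1.

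Genes of stem-like T cells and lymph node homing showed few calls. Of 615 regions, 5 were more accessible in lung IFNγ+ cells (0.813%) and 3 in LN IL-4+ cells (0.488%), both shares below those of all regions, although the median log2 difference was -0.32. The 5 lay at Foxp1 (4) and Bach2 (1), and of the 3, 1 lay at Foxp1 and 1 at Bach2. In the intron of Bach2, the gene of a repressor of effector differentiation, log2 density was 3.52 and 3.84 in the LN libraries, 2.19 to 2.45 in lung IL-4+ cells and 1.69 and 1.76 in the lung IFNγ+ libraries (-1.95 ± 0.32, adjusted p = 0.00947). Over the 117 regions of Bach2, however, the sums went the other way. Summed normalised insertions were 571 and 624 in the LN libraries and 666 and 741 in the lung IFNγ+ libraries. Tcf7, the gene of the factor TCF-1, had no call among its 15 regions, where summed normalised insertions were 523 and 216 in the LN libraries and 158 and 151 in the lung IFNγ+ libraries. The LN libraries differed more from each other there than the lower of them did from the lung IFNγ+ libraries. The counts were 10 and 7 without LN library 2, 6 and 9 without lung IL-4+ library 1, 3 and 2 without LN library 1, 4 and 1 without lung IL-4+ library 2, and 0 and 0 without either lung IFNγ+ library.

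Factors of T cell activation, such as the AP-1, EGR and NR4A genes, had 1 of 451 regions called, at Nr4a3, higher in lung IFNγ+ cells (0.222%), and a median log2 difference of -0.09. Without LN library 2 the list had 5 calls higher in lung IFNγ+ cells and 6 in the other direction, without LN library 1 it had 3 and 0, without lung IL-4+ library 1 it had 2 and 1, and without either lung IFNγ+ library 0. Costimulatory and inhibitory receptors had 6 of 323 regions higher in lung IFNγ+ cells (1.86%) and 3 higher in LN IL-4+ cells (0.929%), shares close to those of all regions. At Tnfrsf9 (4-1BB) and Ctla4, which had 1 call each, summed normalised insertions over the gene went against the call. For Tnfrsf9, called higher in LN IL-4+ cells, they were 252 and 250 in the LN libraries and 320 and 351 in the lung IFNγ+ libraries. For Ctla4, called higher in lung IFNγ+ cells, they were 246 and 257 against 207 and 221. At Havcr2 and Btla the sums went with the calls. Of the 6 calls, 3 were at Havcr2, the gene of TIM-3, and 1 each at Ctla4, Cd44 and Cd6. The 3 were at Btla (2) and Tnfrsf9. These counts were 3 and 1 without LN library 1, 5 and 1 without lung IL-4+ library 2, 6 and 2 without lung IL-4+ library 3, 0 and 0 without lung IFNγ+ library 1 and 1 and 1 without library 2.

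**Figure D3:**
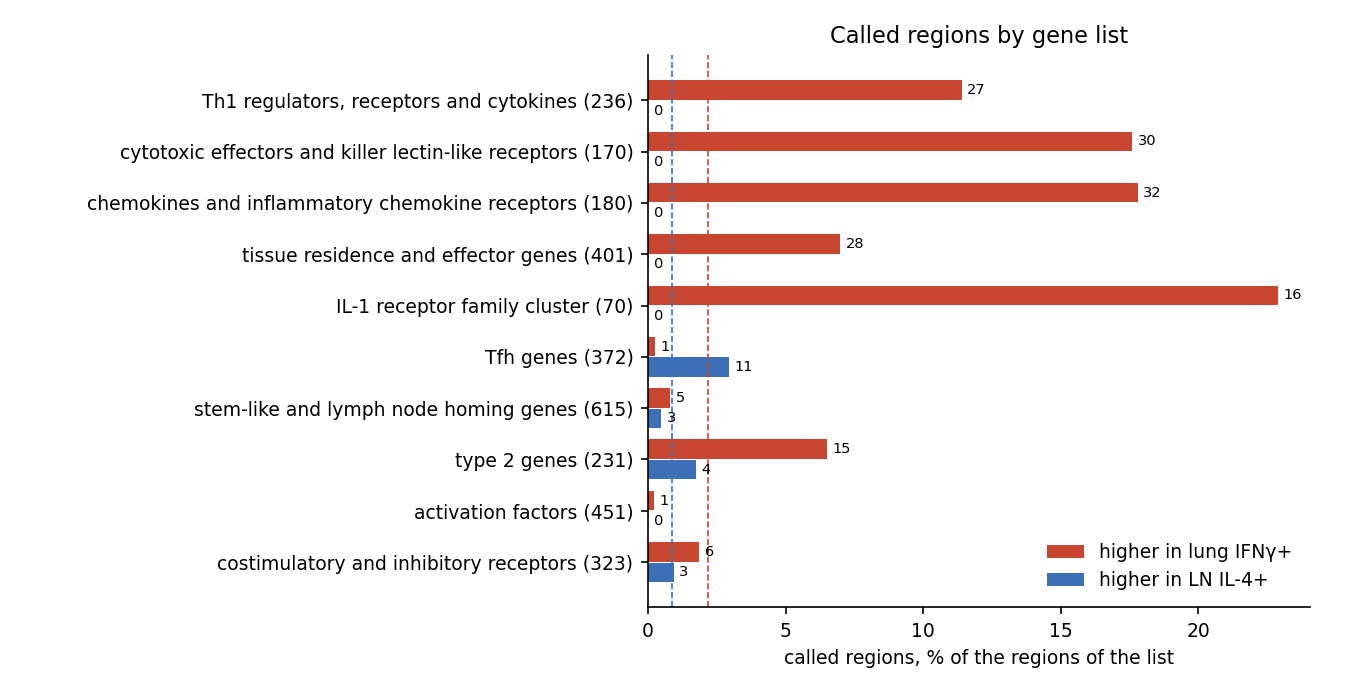
Share of the regions of each gene list (number of regions in brackets) called higher in lung IFNγ+ cells (red) or in LN IL-4+ cells (blue), in percent, with the number of called regions beside each bar. The dashed lines mark the shares over all regions, 2.17% and 0.862%. The Th1, cytotoxic, chemokine, residence and IL-1 receptor lists pass the red line with 0 calls in blue. The Tfh list passes the blue line, the type 2 list passes both lines (6.49% and 1.73%) and the costimulatory list is just above the blue line (0.929%).

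Among markers of other T helper cells, 5 of 51 regions of Th17 genes (9.8%, against 2.17% of all regions) were more accessible in lung IFNγ+ cells, 4 of them at Il23r (a chain of the IL-23 receptor) and 1 at Ccr6. Il23r neighbours Il12rb2. The intronic region of Il23r with the largest difference (chr6:67431745-67432154) had log2 densities of 1.10 and 0.19 in the LN libraries, 1.42 to 1.57 in lung IL-4+ cells and 4.10 and 3.74 in the lung IFNγ+ libraries (3.28 ± 0.43, adjusted p = 0.00413). Summed densities of the 5 Th17 promoter regions were 12.7 and 10.5 in the LN libraries and 16.0 and 16.6 in the lung IFNγ+ libraries. Of 120 regions of regulatory T cell genes 2 (1.67%) were called, 1 at Ikzf2 and 1 at Il2ra, both higher in lung IFNγ+ cells, a share below that of all regions. Of 55 regions of NK and innate lymphoid markers 3 (5.45%) were called, all higher in lung IFNγ+ cells, at Klrb1c, Kit and Gata3. Of 38 myeloid marker regions, 2 (5.26%) at Itgax (CD11c), 1 of them within 10 kb of Itgam (CD11b), were higher in lung IFNγ+ cells and 1 (2.63%) at Cebpa was higher in LN IL-4+ cells. Of 23 regions of B cell genes, 1 (4.35%, against 0.862% of all regions) in an intron of Pax5 (chr4:44624227-44625270) was higher in LN IL-4+ cells, with 4.04 and 4.14 against 2.44 and 2.48. Of 108 regions of T cell markers 1 (0.926%), at Lck, and of 51 of lung epithelium and endothelium 1 (1.96%), at Cdh1, were higher in lung IFNγ+ cells, shares below that of all regions. The part of other cells in these calls was not tested. Without lung IFNγ+ library 1 or 2 each marker list had 0 calls. Without LN library 2 the regulatory T cell list had 9, the T cell list 6 higher in LN IL-4+ cells, and the B cell list 0. Without lung IL-4+ library 1 the B cell list had 2. The NK and innate lymphoid list had 1 without LN library 1 or lung IL-4+ library 2, and the epithelium and endothelium list 0 without LN library 1. The myeloid call at Cebpa was lost without LN library 1, LN library 2 or lung IL-4+ library 2, and 1 of the calls at Itgax without LN library 2 or lung IL-4+ library 2 or 3. The Th17 list had 3 without lung IL-4+ library 2 or 3.

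Outside the lists, the largest difference among called regions in favour of lung IFNγ+ cells lay in an intron of Snd1, nearest to the start of Lrrc4 (5.88 ± 1.41, adjusted p = 0.045), with -0.50 and -1.43 in the LN libraries and 4.91 and 4.91 in the lung IFNγ+ libraries. The lung IL-4+ libraries did not agree there, at -1.45, -0.72 and 4.07. A region in an intron of Serpinb2, closest to the start of Serpinb10 (chr1:107533702-107534123), was more even. It had 0.20 and 0.93 in the LN libraries, -0.23 to 1.53 in lung IL-4+ cells and 5.75 and 5.68 in the lung IFNγ+ libraries (5.15 ± 0.58, adjusted p = 0.00232). Regions near Dennd4a (5.06), Usp44 (5.01), Tbc1d5 (4.94) and Car5b (4.87) followed in log2 difference. The Usp44 region lies in the stretch of chromosome 10 given with the other observations. Lung IL-4+ cells were at 0.64 to 2.39 there, against 5.16 and 5.19 in the lung IFNγ+ libraries. Accessibility and sequence that differs between the reporter lines cannot be told apart at this region. Among promoters, that of Samd3 (chr10:26229456-26229898) came next to Ifng, with -0.45 and 1.40 against 5.23 and 5.04 (4.66 ± 0.57, adjusted p = 0.00314). The promoter of Dhrs9, the gene of a short-chain dehydrogenase, was already open in LN IL-4+ cells, with 3.07 and 3.94 against 6.94 and 6.55 (3.24 ± 0.35, adjusted p = 0.0021), and was called under each of the 23 alternatives.

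In the other direction the region of Pacsin2 shown above (chr15:83431120-83431716) had log2 densities of 3.56 and 3.43 in the LN libraries, 0.21 to 0.76 in lung IL-4+ cells and -0.21 and -1.08 in the lung IFNγ+ libraries (-4.14 ± 0.58, adjusted p = 0.00503). Pacsin2 encodes a protein of membrane curvature and endocytosis. The promoter of Susd4, the gene of a complement regulator (chr1:182763766-182764505), was the most open of the 47 promoter regions called higher in LN IL-4+ cells, with 5.52 and 5.74 against 2.82 and 3.17 (-2.63 ± 0.30, adjusted p = 0.00231), and 2.90 to 3.72 in lung IL-4+ cells. Regions near Cdhr2 (-4.41), in an intron of Camk2b closest to the start of Ykt6 (-5.08) and in an intron of Armc8 (-4.84) had larger differences at lower density. The Armc8 region was called under 9 of the 23 alternatives.

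Single genes gathered many calls. Of 17021 genes with a region within 10 kb, 1289 had a region higher in lung IFNγ+ cells, 708 had a region higher in LN IL-4+ cells and 77 had both. Gas7, the gene of a cytoskeletal protein, had 11 of its 18 regions called and a median log2 difference of 2.86. It was followed by Runx2, a Runx factor, with 10 of 73, Il1rl1 with 9 of 23, Rora and Chsy1 with 8 each, and Cmklr1, the gene of the chemerin receptor, with 7 of 14. At LN IL-4+ cells Nav2 and Plcb4, the gene of a phospholipase C, had 10 calls each of 80 and 49 regions, and Lpp, a neighbour of Bcl6, had 9 of 56. Genes with many regions have more chances of a call.

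Motif matches were unevenly shared between the directions. In the central 300 bases, AACCACA (Runx) was found in 28.8% of the regions higher in lung IFNγ+ cells, 11.3% of those higher in LN IL-4+ cells and 11.0% of all regions. AGGTGTGA (T-box) was found in 5.75%, 1.12% and 1.68%, TGANTCA (bZIP, the AP-1 letters) in 25.2%, 13.7% and 13.0%, and GGAAGT (ETS) in 36.2%, 21.2% and 24.0%. TCAAAG (Tcf7) had the opposite pattern, with 20.4%, 43.0% and 21.6%. ATGCAAAT (OCT) was found in 1.30%, 4.28% and 1.77% and GCGTGGG (EGR) in 1.30%, 3.98% and 2.69%. The shares of the remaining motifs were as follows: AGATAA, the letters of GATA factors, in 17.5%, 20.6% and 15.2%, TGGAAAA (NFAT) in 5.59%, 9.07% and 7.16%, GGGNNTTCC (NF-κB) in 6.08%, 4.28% and 5.23%, TTCNNNGAA (STAT) in 11.6%, 9.28% and 9.32%, GGGTGTGG (KLF) in 4.82%, 2.34% and 3.23%, and TAGGTCA (ROR) in 4.94%, 2.75% and 3.00%. Both strands were searched, and some motifs overlap in their letters, T-box with KLF and ETS with NFAT. The shares were similar in regions outside promoters, where Runx was found in 28.9%, 11.5% and 12.3% and Tcf7 in 20.6%, 44.2% and 23.1%.

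**Figure D4:**
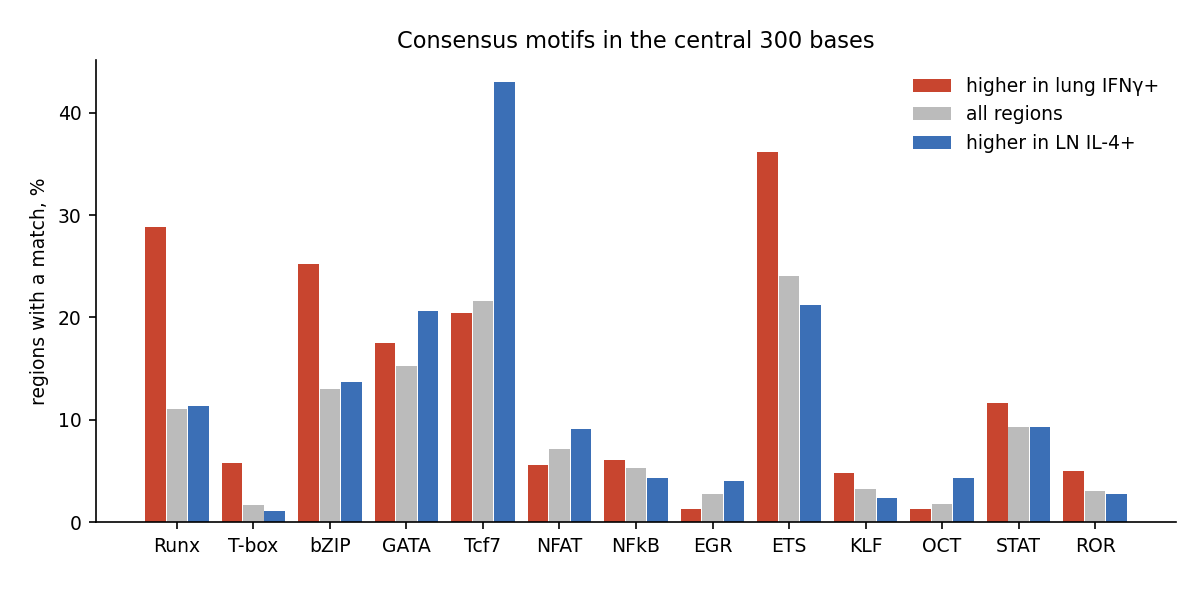
Percent of regions with at least 1 match to each motif in the central 300 bases, for the 2469 regions higher in lung IFNγ+ cells (red), the 981 higher in LN IL-4+ cells (blue) and all regions (grey). Runx, T-box, bZIP, ETS, KLF, ROR, STAT and NF-κB are highest in red, and Tcf7, OCT, EGR, GATA and NFAT in blue.

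For Runx, T-box and Tcf7, and for other motifs as well, the share of called regions was higher among regions with more matches. Of regions with 0, 1 and at least 2 Runx matches, 1.74%, 5.39% and 9.12% were higher in lung IFNγ+ cells, and for T-box the shares were 2.08%, 7.11% and 22.0%, the last over 9 of 41 regions. Of 234 regions with both a Runx and a T-box match 38 (16.2%) were higher in lung IFNγ+ cells and 0 in LN IL-4+ cells. The same rise was seen for bZIP (1.87%, 3.97% and 6.14%), ETS (1.82%, 3.13% and 4.05%) and STAT (2.11%, 2.67% and 3.35%). For Tcf7, 0.626%, 1.45% and 3.46% of regions with 0, 1 and at least 2 matches were higher in LN IL-4+ cells. In that direction the shares also rose for OCT (0.84%, 2.01% and 4.35%, the last over 3 of 69 regions) and GATA (0.807%, 1.09% and 1.78%). A match to Runx, T-box or bZIP was present in 50.5% of the regions higher in lung IFNγ+ cells, in 24.8% of those higher in LN IL-4+ cells and in 23.7% of all regions, and the other regions had none of these letters in their central 300 bases. Motif shares are descriptions of sequence, and binding of the factors was not measured.

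Lung IL-4+ cells share tissue with one population and reporter with the other, and their place between them differed by direction. At regions higher in lung IFNγ+ cells, median log2 density was 1.37 and 1.62 in the LN libraries, 2.52 to 2.86 in lung IL-4+ cells and 3.86 and 3.80 in the lung IFNγ+ libraries. All 3 lung IL-4+ libraries lay on the lung IFNγ+ side of the midpoint at 860 regions (34.8%) and on the LN side at 706 (28.6%). At regions higher in LN IL-4+ cells the medians were 3.41 and 3.53, 1.91 to 2.03, and 1.24 and 1.39. There the 3 lung IL-4+ libraries lay on the lung IFNγ+ side at 530 regions (54.0%) and on the LN side at 130 (13.3%). At the regions higher in the lymph node, lung IL-4+ cells were nearer to the other lung population. At the regions higher in lung IFNγ+ cells they stood near the middle. The regions and the midpoint were both set by the LN and lung IFNγ+ libraries, so a place in between can follow from the choice alone. No share over all regions is given for comparison. Lung IL-4+ libraries 2 and 3 had a narrow spread of counts (log2 quartile ratio 1.751 and 1.667). Library 1 had 2.91 and the lung IFNγ+ libraries 3.087 and 3.046. The effect of this spread on the position was not tested.

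**Figure D5:**
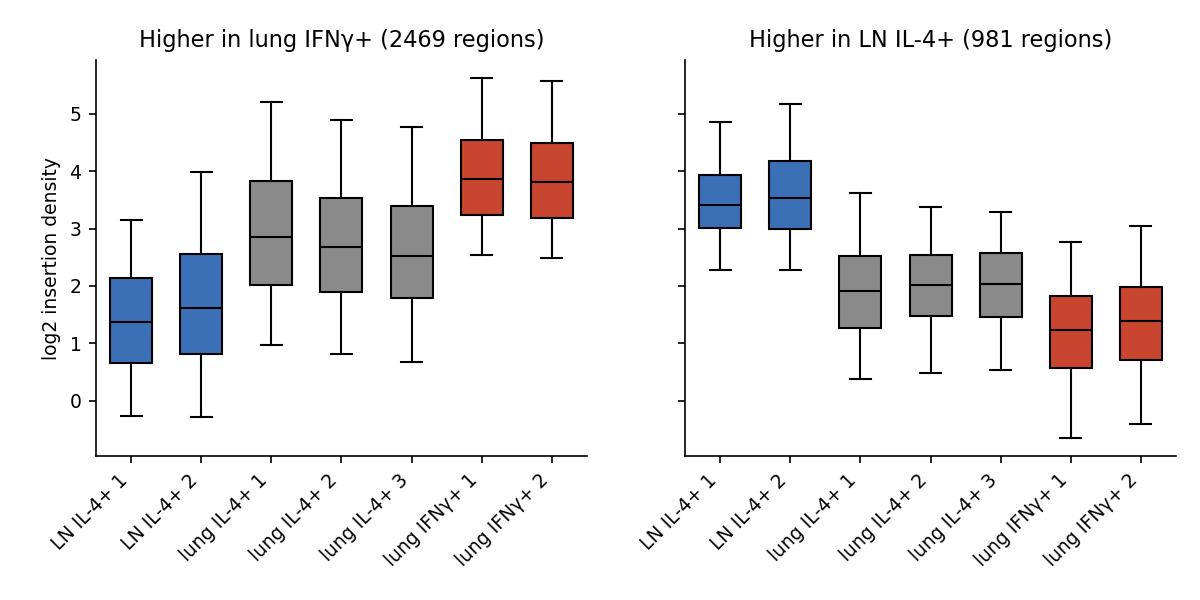
Log2 insertion density (normalised insertions per kb) of the called regions in each of the 7 libraries, for the 2469 regions higher in lung IFNγ+ cells and the 981 higher in LN IL-4+ cells. Boxes are quartiles with the median and whiskers run from the 5th to the 95th percentile of regions. The lung IL-4+ boxes lie between the other populations in both sets.

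The regions where lung IL-4+ cells sided with lung IFNγ+ cells held other motifs than those where they sided with LN IL-4+ cells. Sides are those of the midpoint and set no level at which a region is open or closed. Of the 860 regions on the lung IFNγ+ side, 34.8% had a bZIP match, 2.44% a T-box match and 21.5% a GATA match. Of the 706 on the LN side, 14.9%, 9.49% and 13.0% had these matches. Runx matches were found in 25.0% and 31.3%, against 11.0% of all regions, and so were frequent in both. Among the regions higher in LN IL-4+ cells, Tcf7 matches were found in 43.4% of the 530 on the lung IFNγ+ side. They were found in 32.3% of the 130 where lung IL-4+ cells stayed on the LN side. The position of the lung IL-4+ libraries was measured on the same scale as the calls and shares the lung IFNγ+ and LN libraries with them, so that these shares are given without a test.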

How the data were processed

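ATAC-seq libraries came from sorted CD4+ T cells of a single experiment. Replicates are samples with separate labels, p-values measure only the spread between them, which may be technical, and whether LN and lung IL-4+ libraries share mice is not given in the sources used here. Per the labels and the study's methods, the authors aligned reads with Bowtie2 2.3.2, called peaks with MACS2 2.1.1, counted insertions in merged windows around the summits and normalised them with voom (limma 3.38.3). The deposited table holds log2 insertion densities (per kb, as the authors normalised them) of 113820 regions on GRCm38. They are at least 401 bases long (median 486.5), wider than the uniform summit windows of the methods, and include regions under the density that the study set for an accessible region.

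They were fitted in limma 3.58.1 (R 4.3.3) with 1 mean per population over all 7 libraries, without covariates. The contrast was lung IFNγ+ minus LN IL-4+, with eBayes trend and Benjamini-Hochberg adjustment over all regions, and regions were called at an adjusted p below 0.05 with a difference of 3-fold or more. No region was filtered out. The fit was checked on simulated data, where most planted changes were missed at the spread of these data. A region without a call is therefore not shown to be equal. Insertion counts, where given, were rebuilt from tied values and are lower bounds. Their floors cover counting error only.

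Regions were assigned to GENCODE M21 genes within 10 kb, and to promoters within 1 kb of a protein-coding start. Named are, in each direction, the 10 largest called regions, the 10 largest within 1 kb of a start, the 10 genes with the most calls and, for listed genes, the largest called region and the calls per gene. Gm20388, a read-through model of 4430 kb, was set aside. Regions near Snrpf, which the rule names, are given with the other observations. Members, lists and motifs were chosen with earlier results of these data known. Some named items are not reported here.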

Additional observations from a re-analysis of the deposited data

How the results depend on the processing

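The 2469 calls higher in lung IFNγ+ cells and the 981 higher in LN IL-4+ cells stayed within 1.5 times of these counts with the 4 libraries alone, a pseudocount of 1, a density filter, quantile normalisation, median centring, a GC correction, library weights and a 2-fold threshold. With voom on rebuilt counts there were 3656 and 2239 calls, and with the spread class as a covariate 3241 and 2017, so that the share higher in lung IFNγ+ cells was 62.0% and 61.6% in place of 71.6%. A pseudocount of 5 gave 477 and 87, treat against a 1.5-fold change 828 and 206, and an adjusted p below 0.01 gave 921 and 217. Leaving out 1 library gave 92 to 4575 and 16 to 1418 calls. Replicate numbers do not pair mice of different reporter lines, and deviations from the population means correlated at 0.0574 between same-numbered LN and lung IFNγ+ libraries. Between same-numbered LN and lung IL-4+ libraries the values were -0.54 and -0.30, and between lung IFNγ+ and lung IL-4+ libraries -0.015 and -0.014. The replicate block gave 468 and 88 calls over 7 libraries, 4714 and 2599 over the 4 libraries, and 914 and 244 with a GC correction. At an unadjusted p below 0.05 and 3-fold, 5004 and 3319 regions differed. The cause of these changes was not tested, except that a stricter threshold makes fewer calls by construction. Of 2592 comparisons of the 113 named regions, 1856 were on the same side of the threshold, 736 were no longer called and 0 changed direction. Direction could not change where 1 library was left out or only the threshold moved, and the density filter did not test all 113 regions. Depth limits regions of low density most, and with 2 libraries a population an exact permutation test could not go below p = 0.333.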

Other observations

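The following were chosen after their values were seen. A stretch of chromosome 10 from 92 to 94 Mb held 17 of 195 regions higher in LN IL-4+ cells (8.72%) and 8 higher in lung IFNγ+ cells. Within it, 3 regions near Snrpf (chr10:93611393-93611897, chr10:93614248-93614648 and chr10:93614817-93615271) had 0 rebuilt insertions in both lung IFNγ+ libraries. The LN libraries had 86 and 339, 69 and 115, and 92 and 328 insertions there, and the lung IL-4+ libraries 21 to 141. Against a floor of 3 insertions per lung IFNγ+ library the LN mean was at least 101-fold, 53.3-fold and 102-fold higher. No region had 0 to 2 insertions in both LN libraries and at least 20 in each of the other 5. Cells of both IL-4+ populations came from 1 reporter line and the lung IFNγ+ cells from another, whose reporter sits at Ifng on the same chromosome. A closed region and sequence that differs between the reporter lines cannot be told apart at these positions. The folds are therefore of insertions and not of accessibility alone. Neighbouring regions in the same stretch went the other way. In an intron of Ntn4 (chr10:93697496-93698258) log2 density was 0.48 and 0.48 in the LN libraries, -0.68 to 1.07 in lung IL-4+ cells and 4.44 and 4.57 in the lung IFNγ+ libraries. A region near Timd2 (chr11:46667946-46668431) had 0 insertions in the 5 libraries of IL-4+ cells and 168 and 429 in the lung IFNγ+ libraries. By the same measure this was 44.8-fold the floor, but the region was not called (limma adjusted p = 0.0986). These 5 libraries are all of the IL-4 reporter line, and Il4 lies on the same chromosome as Timd2. Here too a closed region and sequence that differs between the lines cannot be told apart, and the fold is of insertions.

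The variable segments of the immunoglobulin heavy chain locus (chr12:113572927-116010093) had 20 of 141 regions higher in lung IFNγ+ cells (14.2%) and 0 in the other direction, and 127 of 141 log2 differences were above 0. Median log2 density was 1.34 and 1.98 in the LN libraries, 1.53 to 1.95 in lung IL-4+ cells and 2.82 and 2.64 in lung IFNγ+ cells. The variable segments of the T cell receptor alpha locus had 0 of 47 regions called and those of the beta locus 2 of 59. The immunoglobulin count was 10 without LN library 1, 31 without LN library 2, and 1 and 2 without lung IFNγ+ library 1 and 2.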
